A study of Homo sapiens with 24 samples.

Results

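KCNK3 and KCNJ2 are genes for potassium channels that dex moved in opposite directions in Nalm6 cells, KCNK3 up and KCNJ2 down. In dex-treated cells, depletion of G9a, GLP or HP1γ moved both against dex. The 2 genes were selected on that pattern in the measured levels of the 8 groups, so all values of KCNK3 and KCNJ2 are given as a description, with no test. Both are single accessions in the count table, NM_002246 for KCNK3 and NM_000891 for KCNJ2, 2 of 64519 accessions, and both passed the filter on low counts. Nalm6 is a cell line established from a human acute lymphoblastic leukemia of B-cell precursors. The cells carried a lentiviral shRNA with a non-specific sequence (shNS) or one against G9a (shG9a), GLP (shGLP) or HP1γ (shHP1g), received 100 nM dexamethasone (dex, a synthetic glucocorticoid) or its vehicle ethanol for 8 h, and were sampled as total RNA on different days for the 3 biological replicates. All groups, the shNS controls included, thus carried a lentiviral shRNA. This gave 24 libraries in 8 groups of 3.

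G9a and GLP are lysine methyltransferases that can act as coactivators or corepressors of the glucocorticoid receptor, and HP1γ is a chromodomain protein that binds methylated lysine. KCNK3 encodes TASK-1, a two-pore-domain channel that carries a background leak of potassium and is blocked by extracellular acid. KCNJ2 encodes Kir2.1, a strong inward rectifier, which passes potassium into the cell more easily than out and holds the resting potential near the potassium equilibrium. Both types of channel set the resting membrane potential, and with it the electrical driving force for calcium entry in lymphoid cells.

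KCNK3 lies on chromosome 2 from 26915590 to 26956288 on the plus strand (GRCh37, GENCODE v44lift37), with 2 exons and 6191 bases of spliced transcript. KCNJ2 lies on chromosome 17 from 68164814 to 68176185 on the plus strand, and its longest annotated transcript has 2 exons and 5391 bases. The 250 bases upstream of each RefSeq start are shown because dex and the depletions moved the RNA of both genes. They come from RefSeq (GRCh38.p14) and were found once, without a mismatch, at chr2:26915340-26915589 and chr17:68165423-68165672 of GRCh37. Capitals mark the GC box GGGCGG on either strand, the sequence that Sp1-type factors bind, and overlapping matches run together.
KCNK3: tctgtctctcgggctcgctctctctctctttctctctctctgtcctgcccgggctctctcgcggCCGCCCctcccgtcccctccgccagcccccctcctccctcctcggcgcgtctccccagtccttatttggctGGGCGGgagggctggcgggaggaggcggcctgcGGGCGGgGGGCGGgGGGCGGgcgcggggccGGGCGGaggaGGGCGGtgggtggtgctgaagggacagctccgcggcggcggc
KCNJ2: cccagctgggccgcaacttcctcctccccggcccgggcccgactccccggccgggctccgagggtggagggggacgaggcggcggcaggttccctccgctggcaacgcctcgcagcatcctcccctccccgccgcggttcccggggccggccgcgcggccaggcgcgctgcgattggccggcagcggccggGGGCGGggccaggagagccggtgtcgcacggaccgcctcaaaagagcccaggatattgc
Both windows were rich in G and C, at 76.4% for KCNK3 and 77.6% for KCNJ2 against a median of 58% over 35116 RefSeq promoters of the same length. They held 27 and 32 CpG dinucleotides against a median of 11. The KCNK3 window had 7 matches to GGGCGG and the KCNJ2 window had 1, and 42.6% of promoters had at least 1. The hexamer TGTTCT, 1 arm of the glucocorticoid response element, had on either strand 0 matches in both windows and at least 1 in 12.4% of promoters. CCAAT on either strand had 0 matches for KCNK3 and 1 for KCNJ2, with at least 1 in 32% of promoters. A match is only a run of letters, and sites outside these windows were not searched. The KCNJ2 window is upstream of the RefSeq start but within the longer GENCODE gene, and its first part is also within the antisense gene KCNJ2-AS1.

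Library totals ran from 9289533 to 14387770 counts, over which KCNK3 had 51 to 566 counts and KCNJ2 140 to 961. The libraries furthest from the others of their group were shG9a dex replicate 2 (SD of the log2 difference across transcripts of 0.403), shHP1g ethanol replicate 1 (0.367) and shHP1g dex replicate 1 (0.356). The study reported efficient depletion of G9a, GLP and HP1γ in these cells by immunoblot and RT-qPCR. In the counts used here the depletions could be followed only at low counts. EHMT1, the gene for GLP, was lower with shGLP in 6 of 6 pairs of libraries, at 36.1% to 83.3% of shNS. CBX3, the gene for HP1γ, was lower with shHP1g in 6 of 6 pairs for NM_016587 and in 4 of 6 for NM_007276, and EHMT2, the gene for G9a, was not analysed here. Of the B-lineage markers examined, IGLL1 (352 to 878 counts), MME (189 to 483) and CD79A (19 to 178, the lowest in shG9a dex replicate 2) were present. CD79B, DNTT and CD22 were listed at 0, and PAX5, EBF1 and VPREB1 had at most 7 counts. A tested transcript was present for 39.2% of genes with 1 accession and 25.1% of those with 3 or more. Whether the number of accessions bears on the markers listed at 0 was not tested. T-lineage and erythroid markers had at most 3 counts each. The summed level of 6 myeloid markers was 20.4 to 34.0 CPM in the 6 shGLP libraries and 2.75 to 11.7 CPM in the other 18, of which LYZ, the gene for lysozyme, made up 19.4 to 31.2 CPM in shGLP (log2 fold change with shGLP 2.71 in ethanol, adjusted p = 3.21e-06, and 3.22 in dex, adjusted p = 5.94e-07, edgeR). CSF1R, ITGAM and S100A8 were listed at 0. The part of this in the shGLP values below was not tested.

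All levels are normalized CPM, that is counts scaled to library size with upper quartile factors, given for replicates 1, 2 and 3 in that order. In shNS cells with ethanol, KCNK3 had 6.78, 8.75 and 12.4 CPM, a mean of 9.31 ± 2.86 (SD, n = 3). With dex it had 29.1, 39.7 and 45.8 CPM, a mean of 38.2 ± 8.44 (SD, n = 3). Every dex library was above every ethanol library. The fitted dex change was 4.16-fold, a log2 fold change of 2.06 (SE 0.12), and the single replicates gave 4.29-, 4.54- and 3.69-fold.

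KCNJ2 had 43.3, 46.0 and 40.8 CPM in shNS cells with ethanol, a mean of 43.4 ± 2.61 (SD, n = 3). With dex it had 13.5, 14.7 and 11.3 CPM, a mean of 13.2 ± 1.72 (SD, n = 3). The groups did not overlap, and the spread within each was small beside the difference. The fitted change was 3.29-fold lower with dex, a log2 fold change of -1.72 (SE 0.15), and the replicates gave 3.20-, 3.13- and 3.61-fold.

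In the depleted lines KCNK3 was still higher with dex, but reached a lower level in dex than in shNS cells. With shG9a, KCNK3 had 7.12, 8.69 and 15.1 CPM in ethanol (10.3 ± 4.25, SD, n = 3) and 15.3, 18.5 and 31.3 CPM in dex (21.7 ± 8.47, SD, n = 3). With shGLP it had 5.24, 7.39 and 11.2 CPM in ethanol (7.93 ± 3.00, SD, n = 3) and 14.9, 18.5 and 23.7 CPM in dex (19.1 ± 4.40, SD, n = 3). With shHP1g it had 6.17, 8.83 and 15.1 CPM in ethanol (10.0 ± 4.57, SD, n = 3) and 20.0, 26.7 and 33.2 CPM in dex (26.6 ± 6.57, SD, n = 3). In each of these lines all dex libraries were above all ethanol libraries, by the narrowest margin with shG9a. The fitted dex change of KCNK3 was 2.10-fold with shG9a, 2.44-fold with shGLP and 2.72-fold with shHP1g. On the log2 scale this was 51.9%, 62.5% and 70.1% of the shNS change.

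KCNJ2 was still lower with dex in the depleted lines, from a higher level in ethanol to a higher level in dex. With shG9a, KCNJ2 had 75.2, 57.3 and 79.5 CPM in ethanol (70.7 ± 11.8, SD, n = 3) and 37.3, 33.2 and 33.2 CPM in dex (34.6 ± 2.33, SD, n = 3). With shGLP it had 60.2, 49.8 and 52.4 CPM in ethanol (54.1 ± 5.39, SD, n = 3) and 30.9, 29.0 and 25.7 CPM in dex (28.5 ± 2.68, SD, n = 3). With shHP1g it had 70.5, 64.0 and 69.7 CPM in ethanol (68.0 ± 3.55, SD, n = 3) and 50.9, 34.9 and 26.1 CPM in dex (37.3 ± 12.6, SD, n = 3). The shHP1g dex libraries had the widest spread of any KCNJ2 group, with replicate 1, a library that stands apart, the highest. The fitted dex change was 2.05-fold lower with shG9a, 1.89-fold lower with shGLP and 1.85-fold lower with shHP1g, or 60.1%, 53.6% and 51.5% of the shNS change on the log2 scale. Without shHP1g dex replicate 1 the log2 fold change of KCNJ2 in shHP1g cells was -1.11 instead of -0.89.

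**Figure D1:**
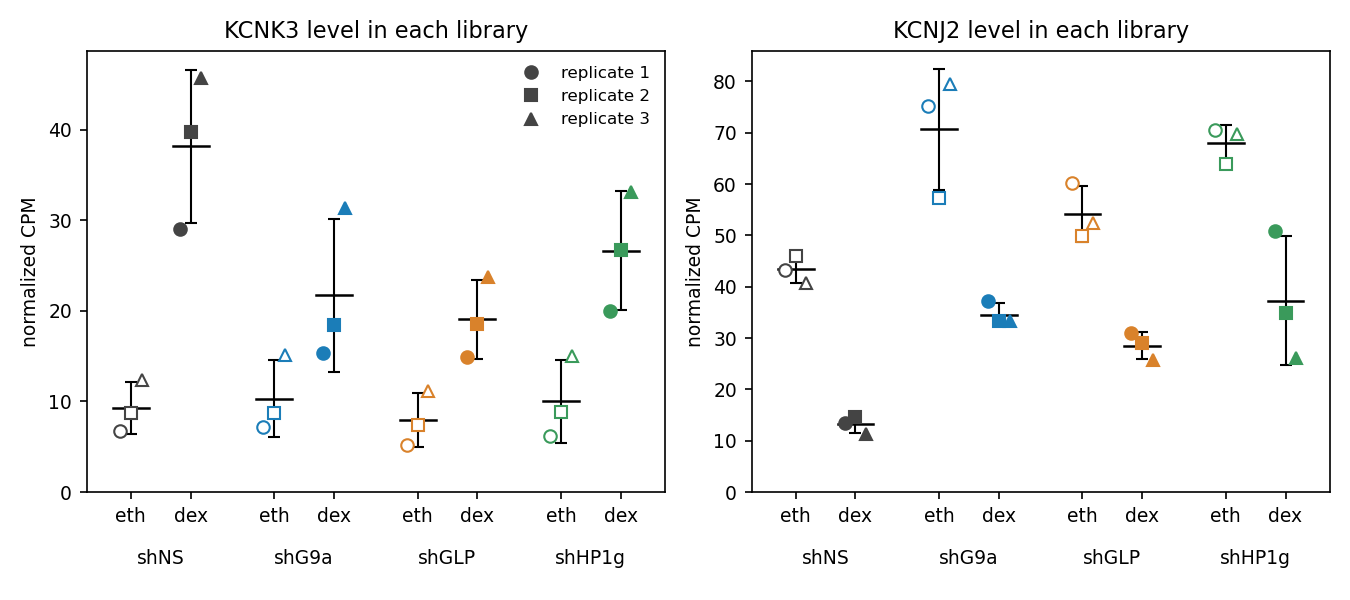
Level of KCNK3 (left) and KCNJ2 (right) in each library, in normalized CPM, by line and treatment. Open symbols are ethanol and filled symbols dex libraries, the shape gives the replicate, and the bars are the mean and SD of 3 libraries. KCNK3 is highest in the shNS dex libraries (29.1 to 45.8 CPM) and KCNJ2 lowest there (11.3 to 14.7 CPM).

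**Figure D2:**
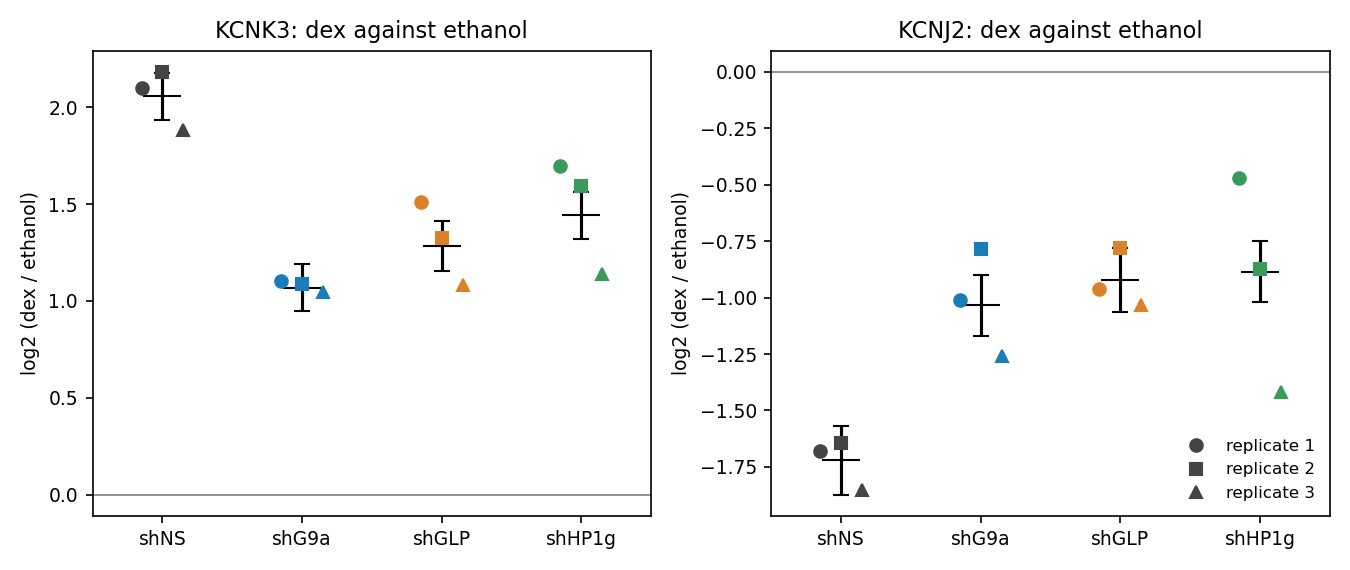
Dex response of KCNK3 (left) and KCNJ2 (right) as the log2 ratio of dex to ethanol, by line. Symbols are the ratios within a replicate and the bars the fitted log2 fold change and its SE. The 3 shNS replicates lie furthest from 0 for both genes, from 1.88 to 2.18 for KCNK3 and from -1.85 to -1.65 for KCNJ2.

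In dex-treated cells KCNK3 was lower than in shNS cells by log2 fold changes of -0.85 (SE 0.11) with shG9a, -1.01 (SE 0.11) with shGLP and -0.53 (SE 0.11) with shHP1g. Within replicates, the shG9a libraries had 52.6%, 46.5% and 68.4% of the shNS level, the shGLP libraries 51.3%, 46.7% and 51.8%, and the shHP1g libraries 68.8%, 67.2% and 72.5%. All 9 pairs were below 100%. The pooled ranges of shG9a and shHP1g overlapped that of shNS, while that of shGLP did not. Without shG9a dex replicate 2 the shG9a value was -0.78.

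KCNJ2 was higher than in shNS cells after dex by log2 fold changes of 1.39 (SE 0.15) with shG9a, 1.11 (SE 0.16) with shGLP and 1.48 (SE 0.15) with shHP1g, or 2.62-, 2.16- and 2.80-fold. Within replicates the level was 275%, 226% and 294% of shNS with shG9a, 229%, 197% and 227% with shGLP, and 376%, 237% and 231% with shHP1g. None of the 3 groups overlapped shNS. Without shHP1g dex replicate 1 the shHP1g value was 1.26.

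Without dex, KCNJ2 was also higher in the depleted lines than in shNS cells. Against the shNS ethanol level of 40.8 to 46.0 CPM, shG9a cells had 57.3 to 79.5 CPM, 1.63-fold more (log2 fold change 0.70, SE 0.13). The shHP1g cells had 64.0 to 70.5 CPM, 1.57-fold more (log2 fold change 0.65, SE 0.13), and the shGLP cells 49.8 to 60.2 CPM, 1.24-fold more (log2 fold change 0.31, SE 0.14). Within replicates the level was 173%, 125% and 195% of shNS with shG9a, 139%, 108% and 128% with shGLP, and 163%, 139% and 171% with shHP1g. None of the 3 groups overlapped shNS, though shGLP replicate 2 came close to it. Without replicate 3 the log2 fold changes were 0.56 with shG9a and 0.59 with shHP1g.

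These 3 comparisons share the shNS ethanol libraries with each other, and they share all their libraries with the dex responses described above.

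KCNK3 differed less from shNS in ethanol than in dex. The log2 fold changes were 0.13 (SE 0.13) with shG9a, -0.24 (SE 0.14) with shGLP and 0.09 (SE 0.13) with shHP1g. Within replicates the ethanol level was 105%, 99.4% and 122% of shNS with shG9a, 77.3%, 84.5% and 90.0% with shGLP, and 91.1%, 101% and 121% with shHP1g. Of these lines, shGLP alone lay on one side of shNS in 3 of 3 pairs, and all 3 groups overlapped shNS in range.

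**Figure D3:**
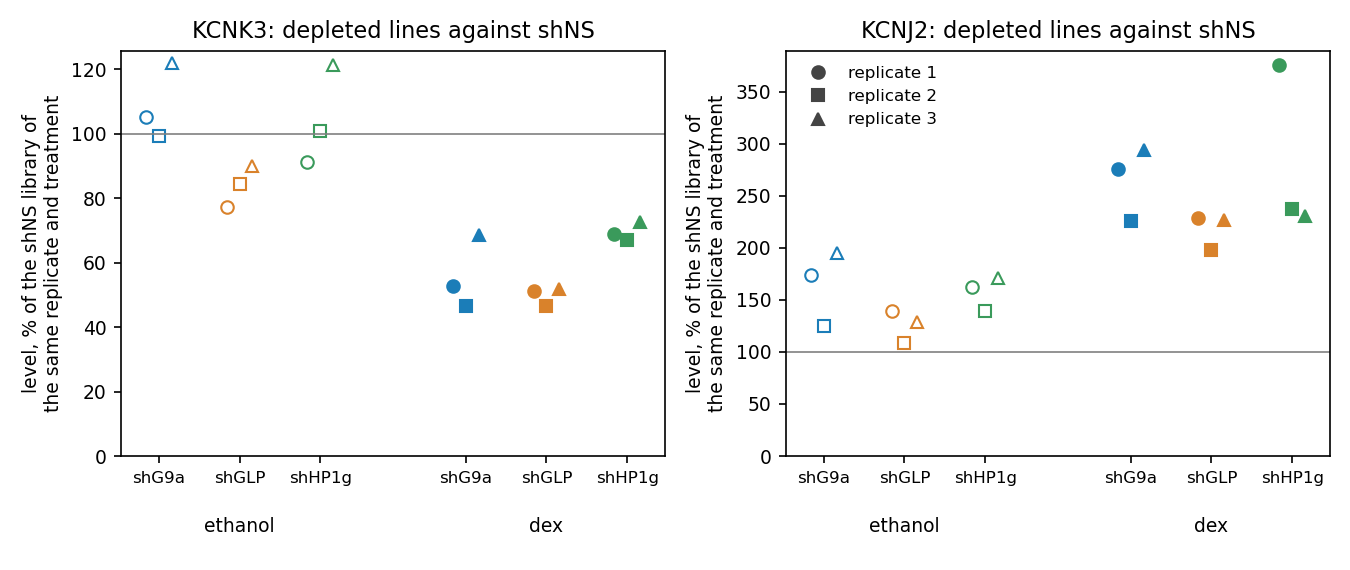
Level of KCNK3 (left) and KCNJ2 (right) in the depleted lines as a percentage of the shNS library with which it shares replicate number and treatment. Open symbols are ethanol and filled symbols dex, the shape gives the replicate, and the line marks 100%. KCNK3 lies on both sides of 100% in ethanol (77.3% to 122%) and below it in dex (46.5% to 72.5%), and KCNJ2 lies above it in both (108% to 195% in ethanol and 197% to 376% in dex).

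Between the depleted lines, KCNK3 in dex was highest with shHP1g and lowest with shGLP. The shHP1g cells had 1.40-fold the shGLP level (log2 difference 0.48, SE 0.11). The ranges of 20.0 to 33.2 and 14.9 to 23.7 CPM overlapped, while within replicates the ratios were 1.34, 1.44 and 1.40. In dex the log2 difference of shHP1g over shG9a was 0.33 (SE 0.11) and that of shG9a over shGLP 0.16 (SE 0.11). In ethanol the differences were 0.37 for shG9a over shGLP (SE 0.14), 0.33 for shHP1g over shGLP (SE 0.14) and -0.05 for shHP1g over shG9a (SE 0.13). Every one of these 6 pairs of groups overlapped in range.

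For KCNJ2 the shGLP line was the lowest of the depleted lines in both treatments. In ethanol the log2 differences were 0.39 for shG9a over shGLP (SE 0.13), 0.34 for shHP1g over shGLP (SE 0.13) and -0.05 for shHP1g over shG9a (SE 0.13). In dex they were 0.28 (SE 0.14), 0.37 (SE 0.14) and 0.09 (SE 0.14) for the same pairs. The ranges of shHP1g and shGLP in ethanol and of shG9a and shGLP in dex did not overlap, and those of the other 4 pairs did. The value of shHP1g over shGLP in dex was 0.56 without shHP1g dex replicate 3, and that of shHP1g over shG9a in dex was -0.13 without shHP1g dex replicate 1.

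Ordered by mean level, the KCNK3 groups ran from shNS dex through shHP1g dex, shG9a dex and shGLP dex to shG9a, shHP1g, shNS and shGLP in ethanol, and each pair of neighbours overlapped in range. The spread followed the replicate number. Replicate 3 had the highest and replicate 1 the lowest KCNK3 level in 8 of 8 groups. For KCNJ2 the order was shG9a, shHP1g, shGLP and shNS in ethanol, then shHP1g, shG9a, shGLP and shNS in dex. Its neighbours shHP1g and shGLP in ethanol, shGLP and shNS in ethanol, shG9a and shGLP in dex, and shGLP and shNS in dex did not overlap, and the others did. In KCNJ2 replicate 3 was the lowest in 5 of 8 groups and replicate 1 in 0.

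Other genes that handle potassium were taken as 4 lists, of pore-forming channel subunits, auxiliary channel subunits, potassium pumps and cotransporters, and proteins that traffic or anchor channels. In total 46 transcripts of these lists, without KCNK3 and KCNJ2, were tested with edgeR, with an adjusted p of at most 0.05 as the limit for a call. Dex changed 5 of the 46 in shNS cells (10.9%, 1 higher and 4 lower), against 9.95% of all tested transcripts (4.49% higher, 5.46% lower). It changed 5 in shG9a cells (10.9%, against 6.24%), 3 in shGLP cells (6.52%, against 3.29%) and 3 in shHP1g cells (6.52%, against 3.22%). In dex, 4 of the 46 differed from shNS with shG9a (8.70%, against 8.80% of all), 3 with shGLP (6.52%, against 5.77%) and 3 with shHP1g (6.52%, against 4.09%). In ethanol 3 differed with shG9a (6.52%, against 3.73%), 2 with shGLP (4.35%, against 3.61%) and 3 with shHP1g (6.52%, against 2.91%).

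Between depleted lines, shG9a and shGLP differed in 9 of the 46 in dex (19.6%, against 8.62% of all) and in 6 in ethanol (13.0%, against 6.23%). The lines shHP1g and shGLP differed in 6 in dex (13.0%, against 4.02%) and in 5 in ethanol (10.9%, against 4.20%), and shHP1g and shG9a in 4 in dex (8.70%, against 6.43%) and in 4 in ethanol (8.70%, against 6.07%). These comparisons share libraries, and whether the list shares differ from those of all transcripts was not tested. The counts include KCNK9, which passed the filter on low counts through shGLP and shHP1g libraries alone. Without it, in dex 2 of 45 transcripts differed from shNS with shGLP and 2 with shHP1g, and in ethanol 1 and 2. Between shG9a and shGLP 8 of 45 then differed in dex and 5 in ethanol. For shHP1g and shG9a the count was 3 of 45 in dex and 3 in ethanol (6.67% each). For shHP1g and shGLP it was 6 in dex and 5 in ethanol.

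Among pore-forming subunits, 14 transcripts of 13 genes were tested out of 77 genes listed. Their median log2 fold change with dex in shNS cells was 0.08, against -0.03 over all transcripts. There 1 of the 14 passed the limit, downward, against 5.46% of all transcripts. This was KCNN4, the intermediate-conductance calcium-activated channel of lymphocytes, which had 76.4, 70.7 and 73.2 CPM in ethanol and 53.5, 49.1 and 44.1 CPM in dex (log2 fold change -0.59, SE 0.18, adjusted p = 0.0356, edgeR). Its call was lost in 9 of 17 alternative settings, among them the fits without replicate 3 (adjusted p = 0.348, edgeR), without shNS dex replicate 2 or 3 and without any one shNS ethanol library. In the other lines KCNN4 had log2 fold changes with dex from -0.38 to -0.33, which did not pass the limit. In shHP1g replicate 1 it had only 41.1 CPM in ethanol and 32.0 in dex, against 56.3 to 74.8 CPM in the other shHP1g libraries.

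KCNA6, a voltage-gated channel of the Shaker family, was higher with shGLP. It had 10.5, 6.47 and 7.29 CPM in shGLP cells with ethanol and 3.65, 2.49 and 2.72 CPM in shNS cells (log2 fold change 1.44, SE 0.20, adjusted p = 4.11e-05, edgeR). In dex it had 8.37, 6.97 and 5.22 CPM with shGLP and 2.95, 2.92 and 1.78 with shNS (log2 fold change 1.42, SE 0.20, adjusted p = 5.04e-05, edgeR). No shGLP library overlapped a shNS library, and both calls held in 16 of 16 alternative settings. These are the same 6 shGLP libraries in which the summed myeloid markers were 20.4 to 34.0 CPM.

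KCNK9 encodes TASK-3, the closest relative of TASK-1 and its partner in heteromeric channels. Its tested accession NR_104210 had few counts. In ethanol it had 1, 3 and 1 counts in the shNS libraries, 12, 9 and 9 with shGLP and 13, 15 and 15 with shHP1g, and in dex it had 0, 2 and 4, then 17, 14 and 7, then 15, 22 and 11 counts. The shG9a libraries had 1 to 6 counts. On the CPM scale the summed counts were 6.58 times those of shNS with shGLP and 9.46 times with shHP1g in ethanol. In dex they were 7.07 times and 7.95 times. More than 1 CPM, as the filter asks of 2 libraries, was reached in 3 of the 6 shGLP and 6 of the 6 shHP1g libraries and in 0 of the 12 others. KCNK9 was thus kept by the groups in which it was high, so no test of it is given.

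KCNJ14 encodes Kir2.4, an inward rectifier of the same subfamily as Kir2.1. In dex it had 9.58, 8.34 and 9.70 CPM with shNS, 12.8, 12.1 and 13.4 with shG9a and 14.1, 12.4 and 13.2 with shHP1g. The log2 fold changes were 0.47 (SE 0.12, adjusted p = 0.0185) and 0.53 (SE 0.12, adjusted p = 0.0136, edgeR). Both groups lay above shNS, but the calls were lost in 9 and 10 of 17 alternative settings, without the replicate block among them (adjusted p = 0.116 and 0.117), and also without shNS dex replicate 2 or 3, and without replicate 1 or 2 of the depleted line in dex. KCNA5, another Shaker-family channel, rose with dex in shG9a cells from 2.54, 2.58 and 3.31 to 4.58, 3.74 and 6.03 CPM (log2 fold change 0.75, SE 0.20, adjusted p = 0.0269, edgeR) and was higher with shHP1g in ethanol (log2 fold change 0.78, SE 0.21, adjusted p = 0.0472, edgeR). These calls were lost in 10 and 13 of 16 alternative settings, the first without shG9a dex replicate 3 or any shG9a ethanol library and the second without any shHP1g ethanol library or shNS ethanol replicate 1 or 3. KCNK6, a two-pore-domain channel at 55.0 to 64.5 CPM in the 24 libraries, passed no limit, with log2 fold changes from -0.06 to 0.09 over the 10 comparisons with shNS or ethanol.

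Of the auxiliary subunits, 8 transcripts of 7 genes were tested, with a median log2 fold change of -0.01 for dex in shNS cells. Of the 8, 0 passed the limit for dex in any line (edgeR), against 3.22% to 9.95% of all transcripts. An unadjusted p under 0.05 was reached by 2 in shGLP, 1 in shHP1g and 0 in the other lines. KCNMB1, the β1 subunit of the large-conductance calcium-activated channel, was the 1 called for a depletion. In dex it had 5.06, 1.89 and 3.23 CPM with shNS and 6.14, 7.12 and 5.25 with shG9a (log2 fold change 0.90, SE 0.25, adjusted p = 0.0257, edgeR). The call was lost without shG9a dex replicate 2, the library that stands apart (adjusted p = 0.153), with either replicate 2 or replicate 3 of shNS dex left out (adjusted p = 0.198 and 0.0590), and in 8 of 16 alternative settings in all. KCNAB3, LRRC26 and KCNMB4, the auxiliary subunits with the highest counts, had log2 fold changes from -0.34 to 0.25, none past the limit.

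Of the pumps and cotransporters, 7 transcripts of 7 genes were tested, with a median of 0.22 for dex in shNS cells, and the 1 gene called in these 10 comparisons was ATP4B, the β subunit of the gastric proton-potassium pump. Like KCNK3 it rose with dex. It had 5.65, 5.52 and 4.93 CPM in shNS cells with ethanol and 24.6, 22.0 and 25.0 CPM with dex (log2 fold change 2.15, SE 0.15, adjusted p = 2.1e-10, edgeR). It also rose with shG9a (1.54, adjusted p = 4.83e-08), shGLP (1.60, adjusted p = 3.35e-07) and shHP1g (1.47, adjusted p = 2.75e-07, edgeR), and these 4 calls held in 17 of 17 alternative settings each. The difference of each depleted line's dex change from that of shNS was -0.62, -0.55 and -0.68 on the log2 scale. The unadjusted p was 0.00591, 0.0200 and 0.00367, and none passed the limit after adjustment (adjusted p = 0.615, 1 and 0.761, edgeR). In dex ATP4B was lower with shGLP than with shNS, at 11.7 to 16.8 against 22.0 to 25.0 CPM (log2 fold change -0.72, SE 0.13, adjusted p = 0.000867, edgeR). In ethanol it was higher with shG9a, at 9.47, 7.75 and 10.7 CPM (0.79, SE 0.16, adjusted p = 0.00445, edgeR). Without replicate 3 the adjusted p of these was 0.0694 and 0.317. ATP1B3, for a β subunit of the sodium-potassium pump, was at 542 to 647 CPM in the 24 libraries and passed no limit in the 10 comparisons.

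Of the proteins that traffic or anchor channels, 17 transcripts of 14 genes were tested. The median log2 fold change of the 17 with dex in shNS cells was -0.10, against -0.03 over all transcripts. Of the 17, 3 fell with dex in shNS cells and 0 rose, against 5.46% and 4.49% of all transcripts. SNTB1 encodes β1-syntrophin, of a family of adaptors that bind the tail of Kir2 channels. It fell from 346, 340 and 316 to 243, 237 and 211 CPM in shNS cells (log2 fold change -0.54, SE 0.07, adjusted p = 1.59e-05, edgeR), and by -0.45, -0.29 and -0.28 with shG9a, shGLP and shHP1g (adjusted p = 0.000301, 0.0283 and 0.0284, edgeR). It was also lower with shG9a than with shNS in ethanol (-0.32, adjusted p = 0.0117) and in dex (-0.24, adjusted p = 0.0440, edgeR), calls that were lost in 5 and 11 of 17 alternative settings, the second also without shG9a dex replicate 2 (adjusted p = 0.268). SNTB2, for β2-syntrophin, was not called for dex but was lower with shHP1g in ethanol, at 102, 115 and 128 against 160, 156 and 176 CPM (log2 fold change -0.51, SE 0.07, adjusted p = 7.92e-05, edgeR), and in dex (-0.53, adjusted p = 2.04e-05, edgeR). With shG9a the SNTB2 changes were -0.25 in ethanol (adjusted p = 0.0396) and -0.39 in dex (adjusted p = 0.000492, edgeR), lost in 12 and 1 of 17 settings.

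The 14-3-3 proteins bind the tail of TASK channels and favor their transport to the cell surface. YWHAG, for 14-3-3γ, fell with dex by log2 fold changes of -0.39, -0.34, -0.27 and -0.26 in shNS, shG9a, shGLP and shHP1g cells (adjusted p = 0.00039, 0.00347, 0.0319 and 0.0366, edgeR). YWHAH fell in shNS cells (-0.27, adjusted p = 0.0072) and YWHAQ in shG9a cells (-0.22, adjusted p = 0.0203, edgeR). These were changes of 1.31-fold or less. The YWHAQ call was lost, among other settings, without shG9a dex replicate 2 (adjusted p = 0.125), without the replicate block (0.0874) and with only the groups compared (0.273, edgeR). The YWHAH call was lost without replicate 1 or 3 (adjusted p = 0.0514 and 0.155, edgeR). The YWHAG call in shNS cells was lost without replicate 3 (adjusted p = 0.0557, edgeR). In shG9a cells it was lost without replicate 3 (adjusted p = 0.0792), without the replicate block (0.0938) and with only the groups compared (0.201, edgeR). The SNTB1 dex call in shG9a cells was lost with only the groups compared (adjusted p = 0.0586, edgeR). The dex calls of SNTB1 and YWHAG with shGLP and shHP1g were lost in 7 to 10 of 17 alternative settings.

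**Figure D4:**
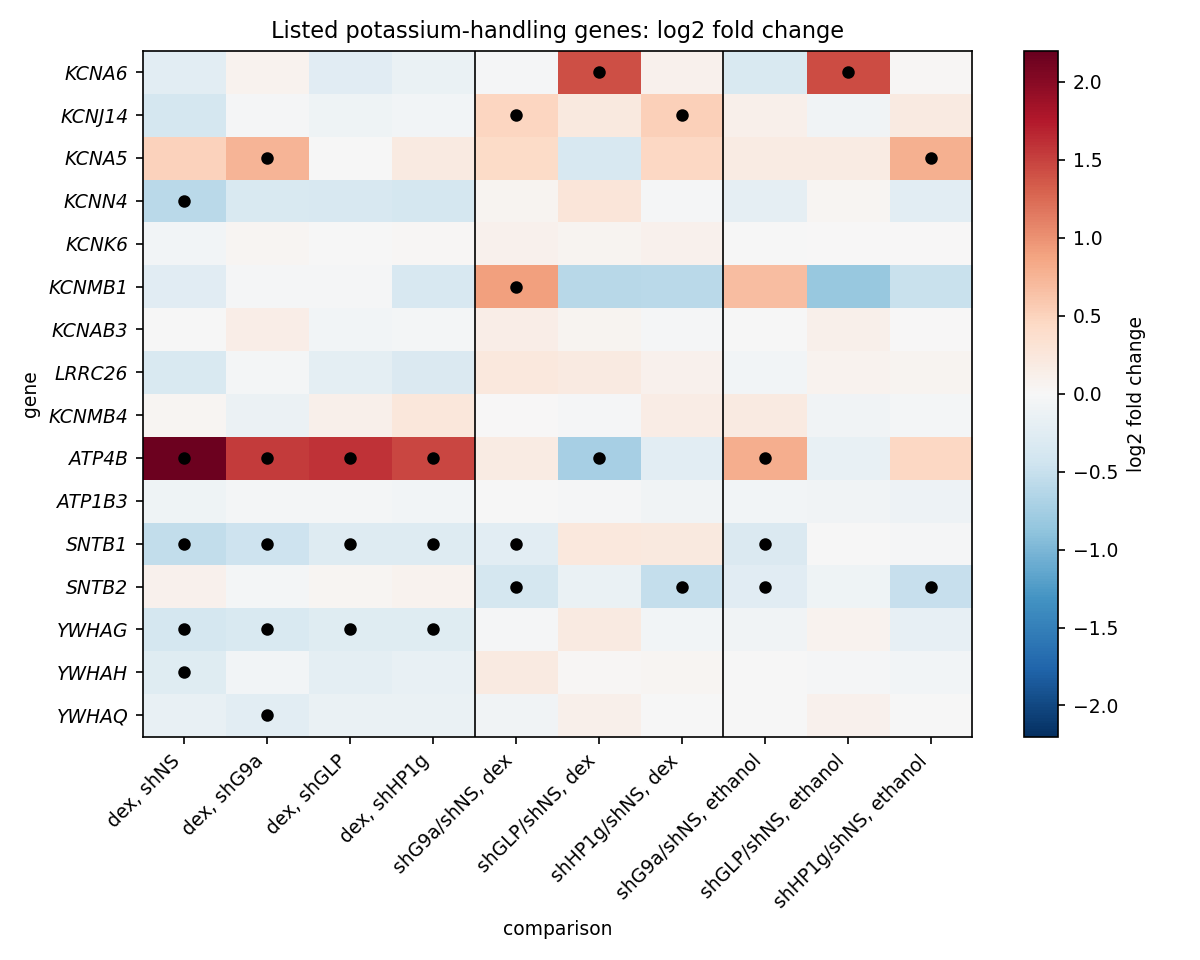
Log2 fold change (color) of named genes of the 4 lists in 10 comparisons, dex against ethanol in each line and each depleted line against shNS in dex and in ethanol. A dot marks an adjusted p of at most 0.05 (edgeR), and KCNK9 is left out for its low counts. ATP4B is called in all 4 dex comparisons (1.47 to 2.15) and KCNA6 in both comparisons of shGLP with shNS (1.42 and 1.44).

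The genes beside the channel genes were also examined. Near KCNK3, CIB4 had 0 to 2 counts, and SLC35F6, a solute carrier gene that starts 30863 bases beyond KCNK3, was at 74.1 to 122 CPM. SLC35F6 rose with dex in shNS cells by a log2 fold change of 0.25 (SE 0.06, adjusted p = 0.00853, edgeR) and was lower with shG9a in ethanol (-0.33, SE 0.06, adjusted p = 0.00246) and in dex (-0.42, SE 0.06, adjusted p = 9.61e-05, edgeR). With shGLP and shHP1g it had log2 fold changes from -0.17 to 0.05, which did not pass the limit.

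Near KCNJ2, the inward rectifier gene KCNJ16 was listed at 0 and SOX9 had 0 to 2 counts. The antisense gene KCNJ2-AS1 (NR_036534), on chromosome 17 from 68163102 to 68165545 on the minus strand, overlaps the GENCODE model of KCNJ2 by 732 bases. It had 15 to 59 counts. Its mean level was 2.28 ± 0.585 CPM with shNS in ethanol and 1.59 ± 0.383 CPM in dex, and 3.03 ± 0.698, 3.85 ± 0.331 and 4.22 ± 0.887 CPM in ethanol with shG9a, shGLP and shHP1g (SD, n = 3 each). No comparison passed the limit, with log2 fold changes with dex from -0.69 to -0.40 in the 4 lines and with depletion from 0.41 to 0.92. The shared bases belong to the longer GENCODE model of KCNJ2. The window upstream of the RefSeq start ends at 68165672, beyond the end of KCNJ2-AS1 at 68165545. By these coordinates the RefSeq transcript of KCNJ2 shares no bases with KCNJ2-AS1. The sources used here do not give the use of strand in counting or the ends of the 2 transcripts as counted.

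The transcripts whose pattern was most like each channel gene were ranked by Pearson's r over the 8 group means of log2 CPM, among 5606 transcripts with a mean of at least 5 CPM. The points share the replicates' days and the scaling, so r is a description of likeness only. For KCNK3 the first were YBX3 (r = 0.990), its pseudogene YBX3P1 (r = 0.986, reads of the 2 uncertain), HEIH (r = 0.983), PER1 (r = 0.983) and PREX1 (r = 0.981). PER1, a clock gene and a known direct target of the glucocorticoid receptor, went from 161 ± 24.4 to 382 ± 49.3 CPM with dex in shNS cells (SD, n = 3 each). YBX3, for a Y-box RNA-binding protein, went from 27.6 ± 2.18 to 59.6 ± 4.71 CPM, and PREX1, for an exchange factor of Rac, from 492 ± 15.2 to 915 ± 69.9 CPM (SD, n = 3 each). Their log2 fold changes with dex, 1.25, 1.12 and 0.89, were smaller than the 2.06 of KCNK3.

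For KCNJ2 the first were CARM1 (r = 0.986), MEX3A (r = 0.982), VGLL4 (r = 0.980), SLC45A3 (r = 0.978) and MEX3B (r = 0.976). CARM1, for an arginine methyltransferase that acts as a coactivator of nuclear receptors, had 351 ± 34.6 CPM with ethanol and 285 ± 25.2 CPM with dex in shNS cells (SD, n = 3 each). MEX3A, for an RNA-binding protein with a RING domain, had 251 ± 26.4 and 165 ± 7.84 CPM, and SLC45A3, for a membrane transporter, 5.92 ± 0.321 and 3.68 ± 0.361 CPM (SD, n = 3 each). The log2 fold changes of these 5 with dex ran from -0.69 to -0.25, against -1.72 for KCNJ2. In dex they were higher than with shNS by 0.21 to 0.62 with shG9a, 0.16 to 0.44 with shGLP and 0.20 to 0.60 with shHP1g, again less than KCNJ2.

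**Figure D5:**
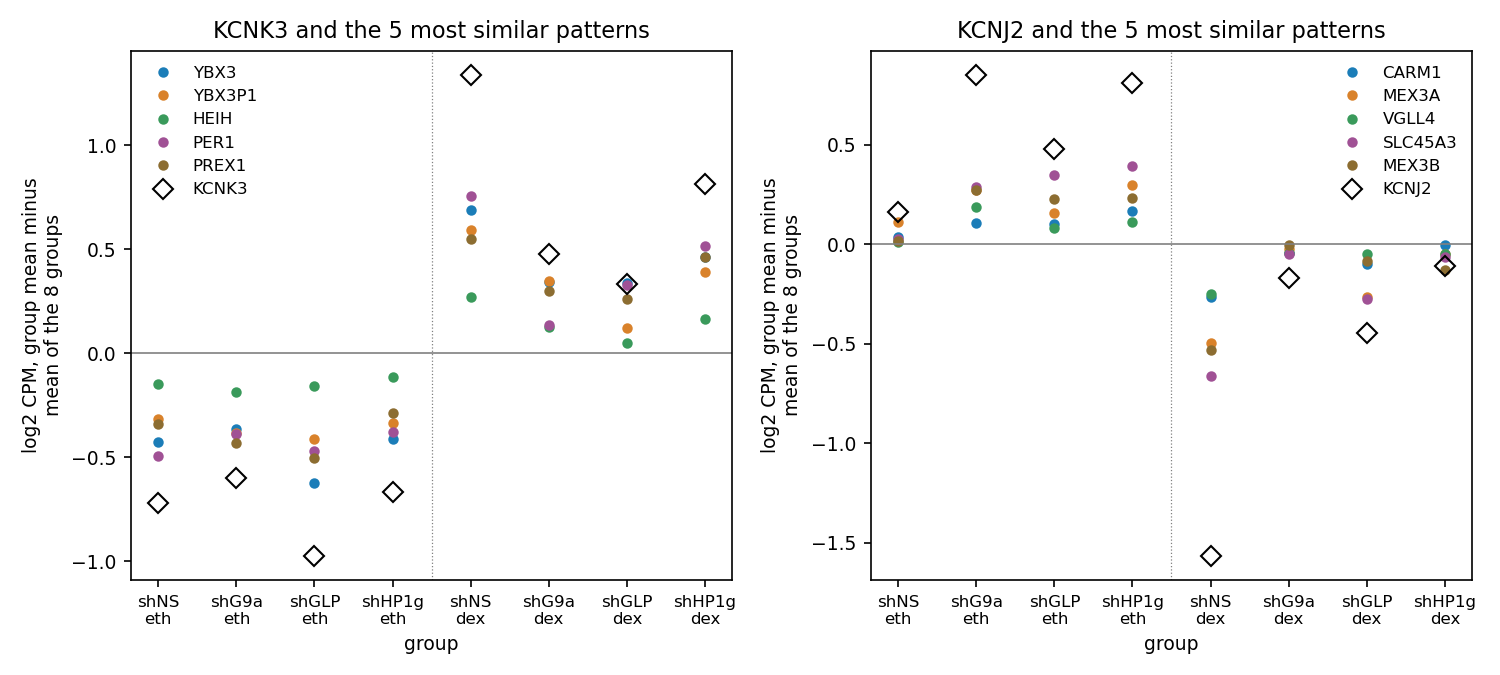
Group means of log2 CPM minus their mean over the 8 groups, for KCNK3 with the 5 most similar patterns (left) and KCNJ2 with its 5 (right). Each point is the mean of 3 libraries. KCNK3 spans -0.97 to 1.34 and KCNJ2 -1.57 to 0.85, wider than the genes most like them.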

How the data were processed

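RNA was sequenced by the authors from 24 libraries of Nalm6 cells. After trimming, reads were aligned by HISAT2 to the hg19 build (GRCh37), and the GenomicAlignments R package assigned them to RefSeq accessions. The deposited table is named for CPM but holds whole-number counts with unequal totals (9289533 to 14387770) and was used as raw counts. Versions, the counting mode and the use of strand are not given in the sources used here. A second deposited table with the authors' log2 fold changes and adjusted p values served only to pair accessions with gene symbols. 0 columns could not be assigned to a sample.

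Counts were scaled by upper quartile factors. Transcripts with more than 1 CPM in at least 2 libraries were kept (10167), as in the study, and fitted in R 4.3.3 with edgeR 4.0.16 (glmQLFit and glmQLFTest) in 1 model of the 8 groups and the replicate number, which stands in for the study's correction for unwanted variation. Per the labels, each replicate number was collected on its own day. Libraries of the same number had deviations from their group means that correlated from -0.00249 to 0.639 over 84 pairs, above 0.1 in 70. KCNK3 and KCNJ2 were chosen on all 8 groups, so their fitted values are printed without p values, and p values of other genes were adjusted over all tested transcripts by the Benjamini-Hochberg method with a limit of 0.05. SE is the absolute log2 fold change divided by the square root of F. With 3 libraries against 3, an exact permutation test of 1 gene cannot pass the limit, so none is given. No library duplicated another (chi-squared per degree of freedom between replicates 3.27 to 36.2). The script was tested on simulated counts.

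Alternatives were TMM scaling, DESeq2 1.42.0, limma 3.58.1 on log2(CPM + 1), no filter, a mean of at least 5 CPM, no replicate block, 1 factor of unwanted variation, only the groups compared, and each replicate number or library left out. The channel genes, the gene lists and the tests were chosen with earlier results of these data known. From each list, the text names up to 8 transcripts past the limit in at least 1 of 10 contrasts, by the smallest adjusted p, and the 3 with the highest mean CPM. It also names the neighboring genes and the 5 transcripts most like each channel gene in pattern. Some listed genes are not reported here. Promoter windows came from RefSeq. Values are limited to RNA levels of the whole culture.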

Additional observations from a re-analysis of the deposited data

How the results depend on the processing

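Genes with few counts were KCNK9 (0 to 22 counts), KCNJ2-AS1 (15 to 59) and EHMT1 (18 to 50), and 3 replicates limit each test. The dex changes of KCNK3 and KCNJ2 and their differences from shNS in dex kept their direction under all settings run. KCNK3 with dex in shG9a cells was 1.25 with 1 factor of unwanted variation, 1.00 with limma and 0.99 to 1.18 with replicates or libraries left out. In dex against shNS, KCNK3 was -0.61 with shHP1g without a filter and -0.64 to -0.44 with libraries left out, and -1.13 to -0.93 with shGLP. KCNJ2 was -1.85 to -1.63 with dex in shNS cells and 1.04 to 1.24 with shGLP in dex.

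Without a filter, KCNK3 with shHP1g in ethanol was -0.0016, and -0.057 to 0.18 with libraries left out. KCNJ2 in ethanol was 0.54 to 0.88 with shG9a and 0.57 to 0.75 with shHP1g with libraries left out, 0.65 with shHP1g without the replicate block, and 0.33 with shGLP in a fit of only the groups compared. KCNK3 in shHP1g over shGLP in dex was 0.54 (1 factor), 0.45 (no filter), 0.48 (no replicate block), 0.50 (only the groups compared) and 0.40 to 0.56 (libraries left out). The SE of this difference was 0.32 without the replicate block, against 0.11 with it. For shG9a over shGLP in ethanol KCNK3 was 0.41 (mean of 5 CPM) and 0.39 (only the groups compared), and for shHP1g over shG9a in dex 0.33 (mean of 5 CPM). KCNJ2 for shG9a over shGLP in ethanol was 0.43 (DESeq2), 0.43 (no filter), 0.40 (only the groups compared) and 0.23 to 0.52 (libraries left out), and for shHP1g over shGLP in dex 0.15 to 0.56. The sign of shHP1g over shG9a changed with libraries left out for KCNK3 in ethanol (-0.19 to 0.064) and for KCNJ2 in ethanol (-0.18 to 0.11) and dex (-0.13 to 0.28).

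The list counts are given with the share of all transcripts called under the same setting. Without a filter, with 139 list transcripts, dex calls were 9 in shNS (all 3.90%), 5 in shGLP (all 1.47%) and 5 in shHP1g cells (all 1.53%), and shGLP in ethanol had 4 (all 1.56%). Without the replicate block, dex calls were 2 in shG9a (all 2.23%), 1 in shGLP (all 1.45%) and 1 in shHP1g (all 1.56%), and shG9a had 1 in dex (all 3.15%) and 1 in ethanol (all 1.10%). In fits of only the groups compared, with 37 to 42 list transcripts, dex calls were 12 in shNS (all 23.8%), 1 in shG9a (all 1.37%), 8 in shGLP (all 8.81%) and 7 in shHP1g (all 11.5%). There shG9a had 0 in dex (edgeR, 6 at an unadjusted p under 0.05, all 1.85%) and 5 in ethanol (all 9.76%), and shGLP 8 in dex (all 12.7%). With 1 factor shG9a had 2 in dex (all 7.95%). With a mean of 5 CPM, and 21 list transcripts, in ethanol shGLP had 0 (edgeR, 2 at an unadjusted p under 0.05, all 6.78%) and shHP1g 1 (all 5.80%). With replicates left out dex calls were 2 to 7 in shNS (all 3.14% to 8.36%), 2 to 5 in shG9a (all 1.59% to 7.61%), 1 to 2 in shGLP (all 0.875% to 2.76%) and 1 to 4 in shHP1g (all 0.997% to 2.77%). In dex they were 1 to 4 with shG9a (all 1.69% to 9.28%) and 1 to 4 with shHP1g (all 0.641% to 4.0%), and in ethanol 0 to 2 with shG9a (all 0.285% to 2.87%), 1 to 2 with shGLP (all 0.997% to 2.79%) and 1 to 3 with shHP1g (all 0.407% to 1.60%). Of 30 calls of named list genes, 15 were lost without the replicate block. The causes were not tested.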
